A study of Homo sapiens with 12 samples.

Results

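The genes described here are TXNIP, its alpha-arrestin relatives ARRDC1, ARRDC2, ARRDC3 and ARRDC4, and the transcription factor pair MLXIP (MondoA) and MLX. The 7 genes were taken by symbol from the annotation of the array, among 22392 genes in all, and each had exactly 1 probe set that carries only its symbol, so no choice between probe sets was needed. RNA of HCC38 cells was hybridised to 12 Human Gene 2.1 ST arrays, 3 per group. Cells received DMSO as control, erastin, tubacin, or erastin plus tubacin. Each drug was given at 5 µM, and the sample labels put the treatment at 18 h (the methods of the study name a longer exposure). HCC38 is an established triple-negative breast cancer line of non-mesenchymal type. Erastin blocks cystine import by system xC-, and tubacin inhibits the deacetylase HDAC6. The comparisons address what each drug does alone and what both do together to these genes.

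TXNIP binds reduced thioredoxin and blocks its activity, and it also lowers glucose uptake by driving glucose transporters into the cell. The ARRDC proteins share its arrestin fold and act as adaptors that bring ubiquitin ligases of the NEDD4 family to membrane proteins. MondoA and MLX form a dimer that senses glucose 6-phosphate and enters the nucleus to bind carbohydrate response elements, which are pairs of E-box-like letters. TXNIP and ARRDC4 are its best known targets.

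The sequence upstream of the start sites is shown first, since MLX and MondoA bind DNA there. For the 250 bases before each annotated start (RefSeq, GRCh38.p14), both strands were searched for the E-box CACGTG, for a spaced pair of CACGNG set 5 bases apart, for the CCAAT box CCAAT, bound by NF-Y, and for TGATGNAA, the composite site of CHOP and ATF4. An E-box can form part of the spaced pair. The 3 genes that rose in the arrays and MLX, the gene that fell, are printed with matches to the first 3 motifs in capitals (of the pair, the E-box-like letters and not the spacer).
TXNIP (chr1:145996580-145996829, minus strand): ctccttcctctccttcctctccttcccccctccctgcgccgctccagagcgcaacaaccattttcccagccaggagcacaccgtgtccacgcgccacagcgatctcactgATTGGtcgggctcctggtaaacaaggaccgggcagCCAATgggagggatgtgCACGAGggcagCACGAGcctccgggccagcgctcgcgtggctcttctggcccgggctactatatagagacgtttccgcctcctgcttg
ARRDC4 (chr15:97960453-97960702, plus strand): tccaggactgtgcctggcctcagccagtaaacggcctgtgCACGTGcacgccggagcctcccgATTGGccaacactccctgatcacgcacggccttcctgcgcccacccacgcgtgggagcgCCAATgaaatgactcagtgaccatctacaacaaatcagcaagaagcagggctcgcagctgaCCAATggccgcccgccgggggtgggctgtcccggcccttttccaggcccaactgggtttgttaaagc
ARRDC3 (chr5:91383318-91383567, minus strand): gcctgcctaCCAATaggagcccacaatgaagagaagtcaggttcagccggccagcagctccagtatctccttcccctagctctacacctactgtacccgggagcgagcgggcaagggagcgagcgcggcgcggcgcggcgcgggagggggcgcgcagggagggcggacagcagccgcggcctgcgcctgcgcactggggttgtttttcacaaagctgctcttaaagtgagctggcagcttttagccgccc
MLX (chr17:42566850-42567099, plus strand): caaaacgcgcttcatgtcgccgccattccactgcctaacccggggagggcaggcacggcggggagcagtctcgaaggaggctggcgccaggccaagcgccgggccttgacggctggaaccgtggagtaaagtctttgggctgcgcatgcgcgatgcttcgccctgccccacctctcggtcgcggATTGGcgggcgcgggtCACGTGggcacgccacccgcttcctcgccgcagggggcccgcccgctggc
The spaced pair stands in TXNIP from position -88 to -72, counted from the start, with 2 CCAAT boxes upstream of it. It was found in 16 of 35116 upstream windows, 0.046%, and in no other window of the 7 genes. Only this exact pattern was searched, so looser forms of the pair are not counted and their absence is not shown. ARRDC4 had an E-box at -210 to -205 and 3 CCAAT boxes, and MLX an E-box at -50 to -45, a motif held by 6.345% of all windows. ARRDC3 had neither E-box motif in its 2 windows, and 1 CCAAT box, which 32.008% of all windows hold. TGATGNAA, found in 3.144% of all windows, was in none of those of the 7 genes. These are matches of letters within a short window and do not show binding.

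**Figure D1:**
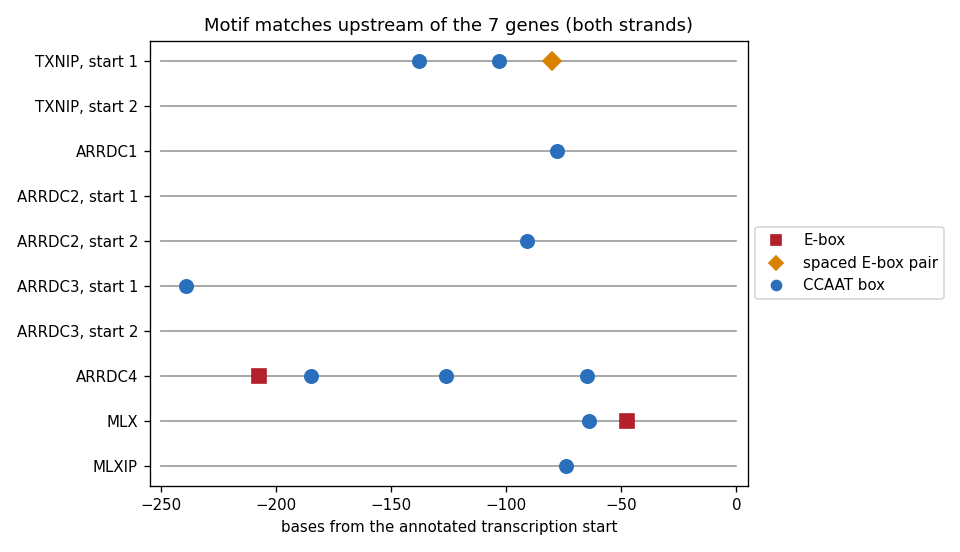
Positions of the motif matches in the 250 bases before each annotated transcription start (x axis, bases from the start; 1 line per start, 2 for TXNIP, ARRDC2 and ARRDC3). The spaced pair (diamond) appears once, in TXNIP, and single E-boxes (squares) appear in ARRDC4 and MLX.

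Levels are RMA values as the authors deposited them, in log2, where 1 unit is a 2-fold difference. A gene rose or fell where its adjusted p in limma was under 0.05, with Benjamini-Hochberg adjustment over all 22392 genes, and changes are given on the log2 scale with their standard error (SE). The study speaks of triplicates and does not state whether each was its own culture, so p-values here reflect sample-to-sample spread that could be technical. The upper quartile of an array was 5.63 to 5.71, and samples of 1 group correlated at 0.982 to 0.988 over all probe sets. The cells carried the epithelial genes EPCAM (10.46 in control), CDH1 (10.53) and KRT19 (10.42). The other epithelial genes measured were lower in control, KRT7 at 7.80, CLDN4 at 6.42, KRT18 at 6.13 and KRT8 at 4.44. The leukocyte gene PTPRC (1.84), the endothelial gene VWF (2.03) and the estrogen receptor ESR1 (2.27) were near the bottom of the range. The progesterone receptor PGR was higher, at 3.69 in control, and ERBB2 is not used here. Markers of other cell types were not all low: of 4 leukocyte genes CD68 was at 6.45 and CD14 at 5.60, and of 4 fibroblast genes COL1A1 was at 9.26 and DCN at 1.72. In bulk RNA, fewer cells of a type and less RNA per cell cannot be told apart.

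Erastin alone raised TXNIP, ARRDC3 and ARRDC4, and these genes rose further when tubacin was added. Tubacin alone changed none of the 7 genes by the test. MLX fell slightly wherever erastin was present, and ARRDC1, ARRDC2 and MLXIP did not pass in any comparison. Of the 7 genes 3 rose and 1 fell with erastin (8.35% of all genes were called, 3.94% higher and 4.41% lower), and again 3 rose and 1 fell with both drugs (31.1% called, 14% higher and 17.1% lower). The 7 genes, and the gene lists further below, were chosen with earlier results of these data known. The shares over all genes are therefore given for scale and do not test for an excess. The median change of the 7 genes was 0.13 with erastin and 0.28 with both drugs, against -0.01 over all genes in each. With both drugs CD68 rose by 1.87 (SE 0.10) and CD14 fell by 1.05 (SE 0.25), while PTPRC and CD3E had means of 1.66 and 2.19. Of the 4 fibroblast genes COL1A1, COL1A2 and PDGFRB fell with erastin (-0.53, -0.71 and -0.73). With both drugs COL1A1 and COL1A2 fell (-0.77 and -0.84), PDGFRB rose (0.85), and DCN passed in neither. The part of these markers in the changes of the 7 genes was not tested.

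**Figure D2:**
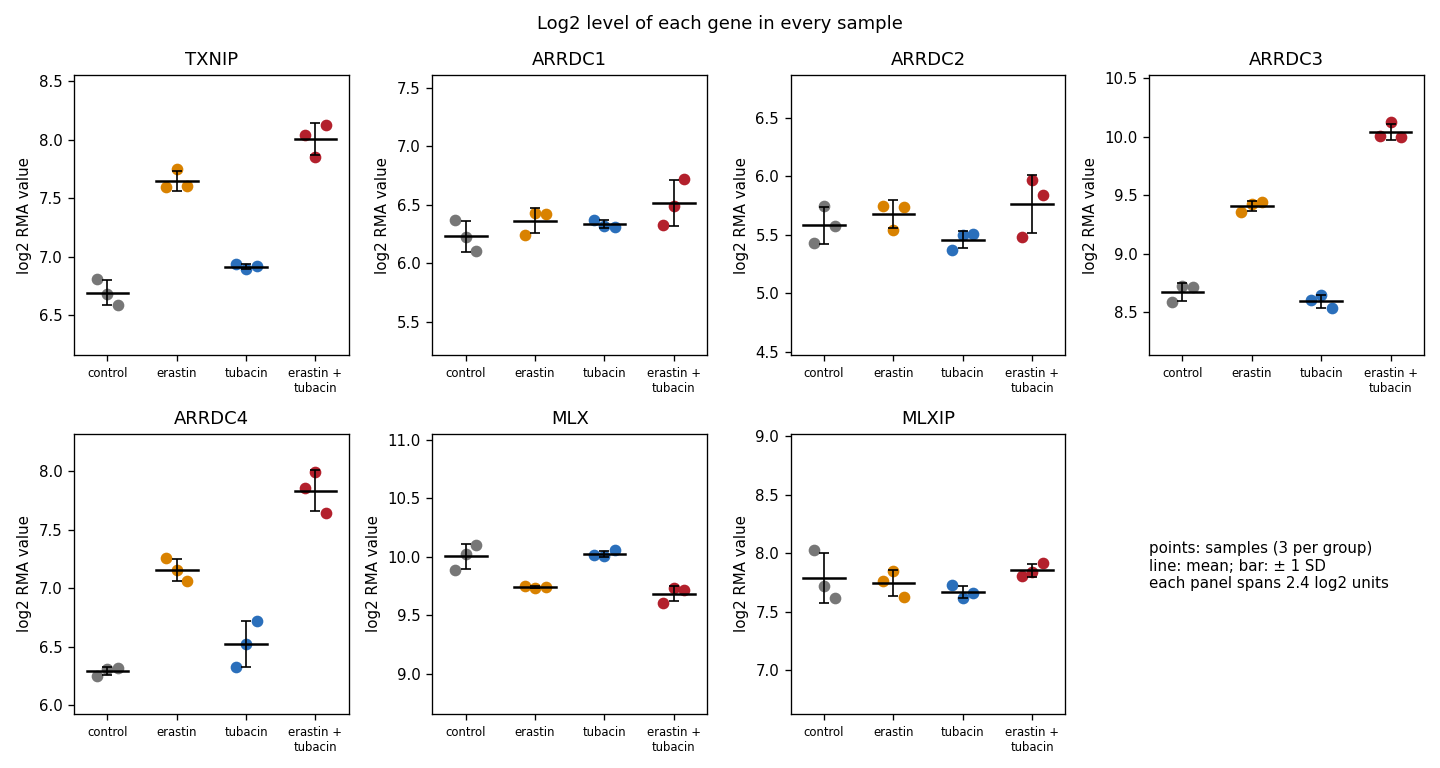
Log2 RMA level (y axis, 2.4 units in every panel) of the 7 genes in each of the 12 samples by group, with the mean (line) and 1 SD (bar) of 3 samples. For TXNIP, ARRDC3 and ARRDC4 all erastin samples lie above all control and tubacin samples, and all samples with both drugs lie above all erastin samples.

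TXNIP, the thioredoxin-binding member, had log2 values of 6.81, 6.69 and 6.59 in control and 7.60, 7.75 and 7.61 with erastin. With tubacin it had 6.93, 6.90 and 6.92, and with both drugs 8.05, 7.85 and 8.12. The 4 groups did not overlap, in the order control, tubacin, erastin, both drugs, although the step from control to tubacin did not pass the test. TXNIP rose by 0.96 with erastin (SE 0.09, 1.94-fold, adjusted p = 0.000177 in limma) and by 1.31 with both drugs (SE 0.09, 2.48-fold, adjusted p = 1.63e-06). With tubacin alone its change was 0.22 (95% interval 0.02 to 0.42, adjusted p = 0.437 in limma). Adding tubacin to erastin raised it by 0.36 (SE 0.09, adjusted p = 0.013 in limma). That call was made in 20 of 23 alternatives. Of the samples left out 1 at a time, only erastin plus tubacin replicate 3 ends it (0.30, adjusted p = 0.0512 in limma).

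ARRDC3, an adaptor in the degradation of integrin beta 4, had values of 8.58, 8.72 and 8.72 in control and 8.60, 8.64 and 8.54 with tubacin. It had 9.35, 9.43 and 9.44 with erastin and 10.01, 10.12 and 9.99 with both drugs. Control and tubacin samples overlapped, erastin stood above both, and the samples with both drugs stood above erastin. ARRDC3 rose by 0.73 with erastin (SE 0.07, 1.66-fold, adjusted p = 0.000221 in limma) and by 1.37 with both drugs (SE 0.07, 2.58-fold, adjusted p = 2.9e-07). With tubacin alone its change was -0.08 (95% interval -0.24 to 0.08), which is 0.000933 when the arrays are scaled to reference genes. Adding tubacin to erastin raised it by 0.64 (SE 0.07, adjusted p = 8.41e-05 in limma).

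ARRDC4, like TXNIP a known target of MondoA, had values of 6.25, 6.31 and 6.32 in control and 7.26, 7.15 and 7.07 with erastin. With both drugs it had 7.86, 7.99 and 7.64. The tubacin samples, at 6.32, 6.52 and 6.72, were the most spread of its groups and lay just above control, with the lowest of them at the height of the highest control sample. ARRDC4 rose by 0.87 with erastin (SE 0.12, 1.82-fold, adjusted p = 0.00133 in limma) and by 1.54 with both drugs (SE 0.12, 2.91-fold, adjusted p = 2.96e-06). With tubacin alone the change was 0.23 (95% interval -0.03 to 0.49, adjusted p = 0.543 in limma). Adding tubacin to erastin raised it by 0.67 (SE 0.12, adjusted p = 0.00134 in limma).

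Of the other alpha-arrestins, ARRDC1, which buds vesicles from the plasma membrane, had values of 6.37, 6.23 and 6.10 in control and 6.33, 6.49 and 6.72 with both drugs. These groups overlapped, and the change of 0.28 (95% interval 0.04 to 0.52) had an adjusted p of 0.0753 in limma. It was called in 6 of 23 alternatives, including both repeated normalizations (adjusted p = 0.0261 and 0.0358 in limma; 0.00387 to 0.258 over all alternatives). ARRDC2 ranged from 5.43 to 5.74 in control and from 5.48 to 5.96 with both drugs, a change of 0.18 (95% interval -0.11 to 0.46). With erastin alone the changes were 0.13 for ARRDC1 and 0.09 for ARRDC2, and with tubacin alone 0.10 and -0.12, and the groups overlapped in each case.

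MLX, the DNA-binding partner of MondoA, had values of 9.89, 10.03 and 10.10 in control and 10.02, 10.01 and 10.06 with tubacin. It had 9.75, 9.74 and 9.74 with erastin and 9.61, 9.73 and 9.72 with both drugs. All 6 samples with erastin lay below all 6 samples without it. MLX fell by 0.32 with both drugs (SE 0.07, adjusted p = 0.0059 in limma) and by 0.34 when erastin was added to tubacin (SE 0.07, adjusted p = 0.0044). The fall of 0.26 with erastin alone was at the threshold (SE 0.07, adjusted p = 0.04998 in limma), and it was called in 5 of 23 alternatives (adjusted p 0.00305 to 0.229). None of these 3 falls is called when the arrays are scaled to reference genes (-0.23 with erastin, -0.14 with both drugs, -0.24 against tubacin).

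MLXIP, which encodes MondoA itself, ranged from 7.62 to 8.03 in control, from 7.62 to 7.85 with erastin, from 7.62 to 7.72 with tubacin and from 7.81 to 7.92 with both drugs. Its control samples were the most spread of its groups. The change was -0.05 with erastin (95% interval -0.28 to 0.19), -0.12 with tubacin (95% interval -0.36 to 0.11) and 0.06 with both drugs (95% interval -0.17 to 0.30). The direction with erastin turns when control replicate 1 (0.074) or erastin replicate 3 (0.016) is left out.

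**Figure D3:**
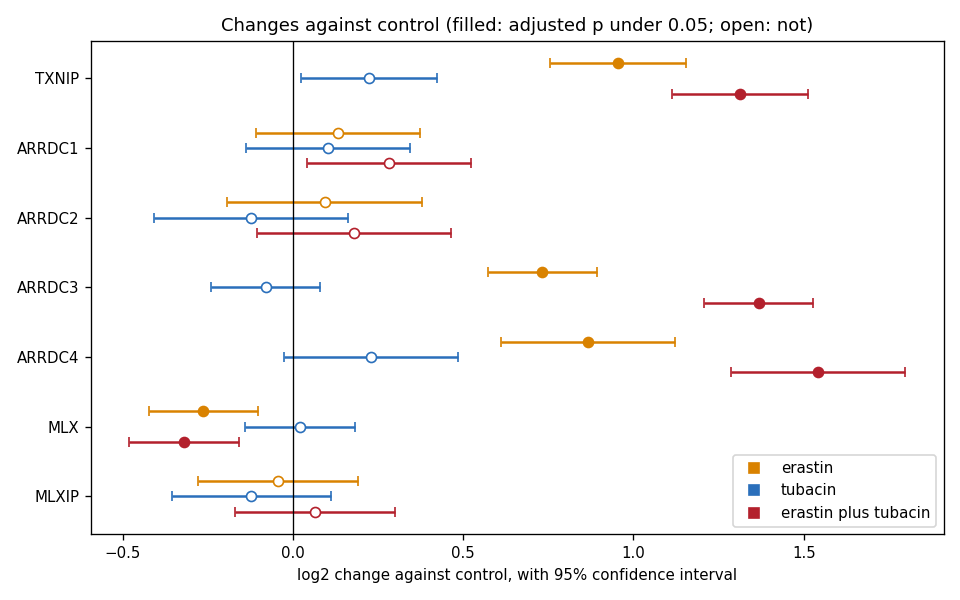
Log2 change of each of the 7 genes against control with erastin, tubacin and both drugs, with 95% confidence intervals from the limma fit (x axis; filled points passed an adjusted p of 0.05). TXNIP, ARRDC3 and ARRDC4 lie to the right for erastin (0.73 to 0.96) and further right for both drugs (1.31 to 1.54), MLX lies slightly to the left for both, and every tubacin point is open.

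For tubacin alone, 0 of the 7 genes passed in limma, 1 gene (TXNIP) had an unadjusted p under 0.05, and 0.232% of all genes were called. Against erastin alone, both drugs raised 3 of the 7 genes, TXNIP, ARRDC3 and ARRDC4 (25.8% of all genes were called, 11.2% higher). Against tubacin alone they raised the same 3 genes, by 1.09, 1.45 and 1.31 in that order, and lowered MLX (28.2% of all genes were called, 12.3% higher and 15.9% lower). These comparisons share their samples with those against control.

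The response to both drugs was also compared with the sum of the separate responses. ARRDC3 alone among the 7 genes passed this test (15% of all genes were called, 6.2% above and 8.84% below the sum). Its separate changes add up to 0.65, and it rose by 1.37, an interaction of 0.72 (SE 0.10, adjusted p = 0.000935 in limma). Put another way, erastin raised ARRDC3 by 0.73 without tubacin and by 1.45 with it. ARRDC4 had an interaction of 0.45 (95% interval 0.08 to 0.81, adjusted p = 0.1 in limma), which passes without tubacin replicate 3 (0.54, adjusted p = 0.0489; 0.0489 to 0.208 over all alternatives). TXNIP had an interaction of 0.14 (95% interval -0.15 to 0.42), with a sum of 1.18 against 1.31 measured. Whether ARRDC3 and TXNIP differ in their interaction was not tested.

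**Figure D4:**
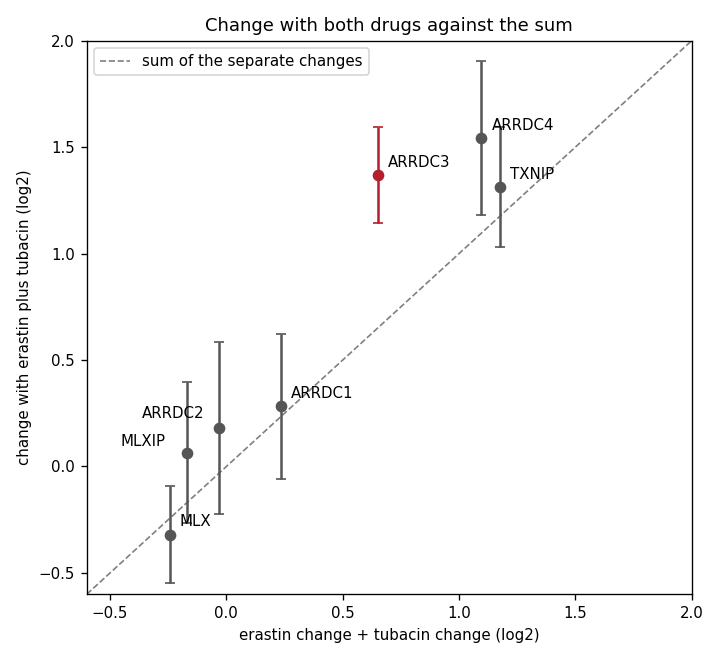
Change with erastin plus tubacin (y axis, log2) against the separate changes added together (x axis, log2) for the 7 genes; vertical bars are 95% intervals of the interaction, and the dashed line marks equality. ARRDC3 (red) lies 0.72 above the line, ARRDC4 0.45 and TXNIP 0.14.

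Around MondoA and MLX, the partners that share MLX were examined next. Of 3 measured genes, MXD1 and MNT, both repressors that can pair with MLX, rose with both drugs (14% of all genes were higher), by 1.70 (SE 0.08) and 0.78 (SE 0.18). MXD1 also rose with erastin alone, by 0.73 (SE 0.08, adjusted p = 0.000406 in limma). Its value with both drugs is 0.93, still called, when its probe sets are averaged, and its value with erastin is then 0.34 and not called. MLXIPL, which encodes ChREBP, the liver relative of MondoA, had a level of 3.62 in control and did not pass. MXD4 is not used here.

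Genes of glucose uptake and its first steps rose in part. Of 7 measured, 3 rose with erastin (3.94% of all genes were higher) and 4 with both drugs (14% were higher), and none fell. SLC2A1, the transporter that TXNIP is known to restrain, had a mean of 9.93 in control (SD 0.06, n = 3), 10.57 with erastin (SD 0.06), 9.72 with tubacin (SD 0.02) and 11.60 with both drugs (SD 0.03). It rose by 0.64 with erastin and by 1.67 with both drugs (SE 0.07 for each). Hexokinase 2, HK2, rose by 1.28 (SE 0.09) with erastin and by 1.55 with both drugs, and PFKFB3, which makes the activator of phosphofructokinase, by 0.77 (SE 0.10) and 1.46. HK1 rose with both drugs by 0.68 (SE 0.08, adjusted p = 6.64e-05 in limma) and had 0.03 with erastin, with an interaction of 0.76. The median of the list was 0.68 with both drugs, against -0.01 over all genes.

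In the thioredoxin system, of 4 measured genes 1 rose with erastin (3.94% of all genes were higher). With both drugs 1 rose and 1 fell (14% of all genes were higher and 17.1% lower). The reductase TXNRD1 rose with erastin (0.29, SE 0.07) and with both drugs (0.69, SE 0.07). Its call with erastin was made in 12 of 23 alternatives and ends without control replicate 2 or 3, tubacin replicate 1 or any 1 erastin replicate (0.24 to 0.30). Thioredoxin itself, TXN, the partner of TXNIP, had changes of -0.03 with erastin and 0.14 with both drugs and did not pass. Mitochondrial thioredoxin, TXN2, had a call with both drugs (-0.27, SE 0.09, adjusted p = 0.0384 in limma), which was made in 10 of 23 alternatives. It ends when scaled to reference genes (-0.09, adjusted p = 0.442), and without control replicate 1 or 2, erastin replicate 3, tubacin replicate 3 or any 1 replicate of both drugs (-0.28 to -0.23). TXNRD3 is not used here.

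The NEDD4 family of ubiquitin ligases, which the arrestin adaptors recruit, split. Of 11 measured ligases and adaptors 3 rose with erastin (3.94% of all genes were higher). With both drugs 5 rose, 1 fell and 5 did not pass (14% of all genes were higher and 17.1% lower). NEDD4L rose by 0.59 (SE 0.06) and NEDD4 by 0.34 (SE 0.07) with erastin, and their changes with both drugs were 0.19 and 0.04. The call of NEDD4L with both drugs was made in 10 of 23 alternatives and ends without control replicate 1 or 3, tubacin replicate 1, or any 1 replicate of erastin or of both drugs (0.17 to 0.20). That of NEDD4 with erastin ends without erastin replicate 2 (0.32). Both had negative interactions. That of NEDD4L (-0.60) was called in 21 of 21 alternatives and that of NEDD4 (-0.39) in 13 of 21, and the latter ends without erastin replicate 2, tubacin replicate 2 or 3, or replicate 1 or 2 of both drugs (-0.39 to -0.36). SMURF2, a ligase of the TGF-beta pathway, changed in opposite directions. Its mean was 10.95 in control (SD 0.08, n = 3), 11.34 with erastin (SD 0.05), 11.17 with tubacin (SD 0.01) and 10.28 with both drugs (SD 0.05). It rose by 0.39 with erastin and fell by 0.66 with both drugs (SE 0.07 for each). SMURF1 (0.66, SE 0.08), WWP2 (0.38, SE 0.08), the adaptor NDFIP1 (0.40, SE 0.09) and HECW1 (1.27, SE 0.16, from a low level of 3.67) rose with both drugs. ITCH, the ligase known to degrade TXNIP, had changes of 0.04 with erastin and 0.12 with both drugs and did not pass.

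**Figure D5:**
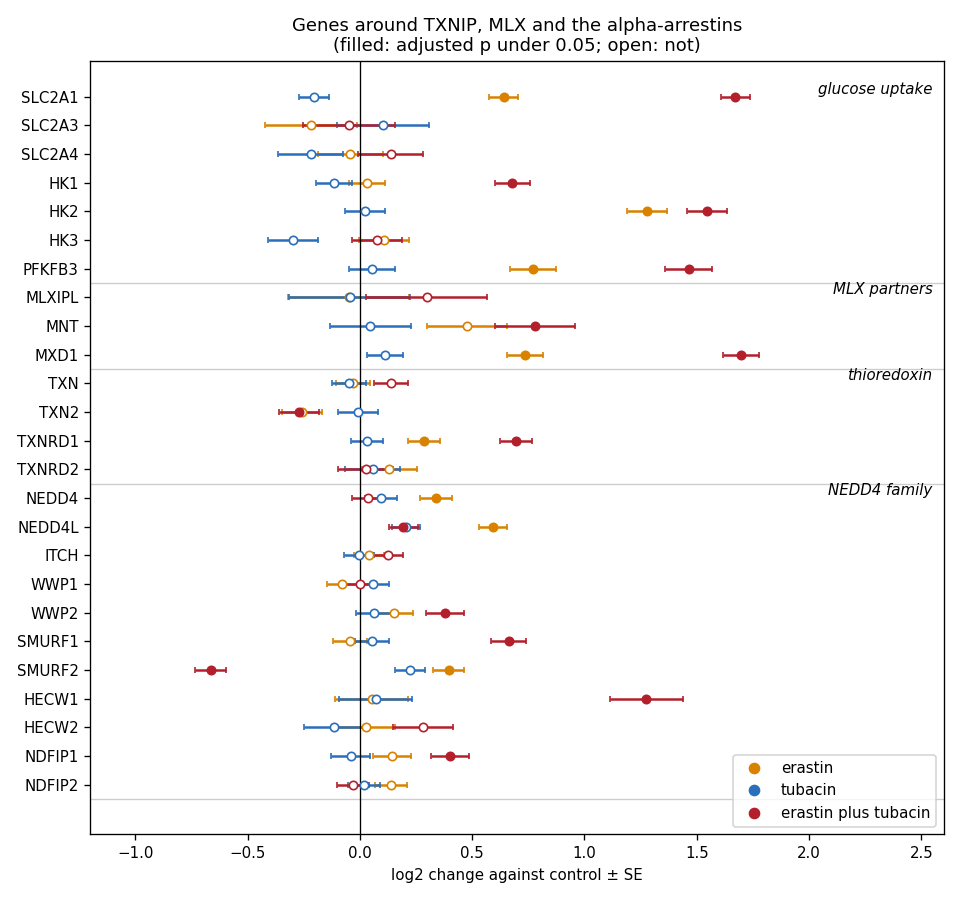
Log2 change against control (x axis, with SE) of genes around TXNIP, MLX and the alpha-arrestins with erastin, tubacin and both drugs; filled points passed an adjusted p of 0.05. SLC2A1, HK2, PFKFB3 and MXD1 rose by 1.46 to 1.70 with both drugs, and SMURF2 had opposite signs with erastin (0.39) and with both drugs (-0.66).

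Among known cargo and partners of the arrestins, 2 of 3 measured genes rose with both drugs (14% of all genes were higher), integrin beta 4, ITGB4, by 0.70 (SE 0.08) and TSG101, the vesicle partner of ARRDC1, by 0.29 (SE 0.06). The iron transporter SLC11A2 had -0.01. Of the other arrestin-fold genes, 5 measured, VPS26A of the retromer rose with both drugs (0.37, SE 0.07) and ARRB1 fell with erastin (-0.34, SE 0.08), a call made in 12 of 23 alternatives that ends without control replicate 1 or 2 or erastin replicate 2 or 3 (-0.32 to -0.30). ARRDC5, the remaining alpha-arrestin, had a level of 2.25 in control and did not pass. ARRB2 is not used here. Of 9 targets that ChREBP is known for in liver, with both drugs 1 rose (SCD, 0.41) and 4 fell, KLF10 by 0.53, FASN by 0.45, ACLY by 0.40 and ELOVL6 by 0.39 (14% of all genes were higher and 17.1% lower). The calls of ACLY and ELOVL6 end when scaled to reference genes (-0.22 and -0.21). Of those that did not pass, PKLR (2.44), FGF21 (2.18) and GPD1 (2.72) had low levels in control, and ACACA (9.30) did not. With erastin alone 1 of the 9, FASN, fell by 0.38 and none rose (4.41% of all genes were lower). With tubacin alone 0 genes of these 7 lists passed in limma (0.232% of all genes were called), and 6 (NEDD4L, SMURF2, SLC2A1, HK3, ITGB4 and SCD) had an unadjusted p under 0.05.

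The genes whose pattern was most like each member were found by Pearson correlation of log2 values over the 12 samples, which share their group means, so that any gene changed by the same treatments scores high. For TXNIP the leading 5 were TOM1L1 (0.991), SLC38A2 (0.987), VEGFA (0.985), ATF4 (0.984) and RNF187 (0.983). For ARRDC3 they were MT1F, ATP13A2 and HSPA13 (0.993 each), MT1G (0.992) and SGPP2 (0.992). For ARRDC4 they were ABL2 (0.983), N4BP2L1, EFNA1 and HERPUD1 (0.982 each) and COPA (0.979). Between the 3 genes themselves the correlation was 0.947 for TXNIP with ARRDC3, 0.942 for TXNIP with ARRDC4 and 0.963 for ARRDC3 with ARRDC4, and after the group means were removed it was -0.64, -0.53 and 0.08, so that the likeness lay in the group means. The leading 2 were DPY30 (0.972) and DCAF15 (0.963) for MLX, ACADVL (0.974) and YJU2B (0.952) for ARRDC1, GLRA3 (0.943) and OR4K13 (0.872) for ARRDC2, and SPINK4 (0.924) and TRIM71 (0.885) for MLXIP. With the group means removed these were 0.71 and 0.927 for MLX and 0.976 and 0.963 for ARRDC1. They were 0.921 and 0.838 for ARRDC2 and 0.914 and 0.929 for MLXIP. ARRDC1, ARRDC2 and MLXIP passed in no comparison, so a partner picked for its correlation also scores high within groups. Each partner was the highest among all genes over these same 12 samples. These values are therefore a description and do not show a shared regulation.

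Of the 16 genes whose upstream window holds the spaced pair of TXNIP, 14 were measured, and TXNIP had the largest change of them with erastin (0.96) and with both drugs (1.31). P4HA1, a collagen prolyl hydroxylase, was next with both drugs, at 1.14, and had -0.19 with erastin. MYL5, a myosin light chain, had 0.57 with both drugs and 0.43 with erastin. HPF1 (-0.66) and RAN (-0.51) were lower with both drugs. This list was made after the values were seen and is given without a test.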

How the data were processed

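RNA of 12 HCC38 samples was measured on Human Gene 2.1 ST arrays. The authors made the deposited log2 values from probe intensities by RMA, and its version is not given in the sources read. All 12 columns were mapped by their labels. The source labels number the line upward from HCC38, while titles and cell line entries give HCC38 for all. Of 53617 probe sets, 23866 carry exactly 1 gene symbol and 1852 several, and the latter were not used. The probe set with the highest mean stood for a gene, which gave 22392 genes, with no filter on dim genes.

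One limma model (limma 3.58.1, R 4.3.3) held the 4 group means, and 6 comparisons were taken from it with eBayes moderation and Benjamini-Hochberg adjustment over all genes. The fit was tested on simulated data. Over all genes a change had a median SE of 0.14, and the number of arrays (3 in each group) limits the precision. No detection calls were used. Named genes are the 7 members, genes of the lists, and the genes most correlated with a member. The members and lists were chosen with earlier results of these data known. Promoter sequences come from RefSeq (GRCh38.p14), where all 7 genes matched. Alternatives were repeated quantile or cyclic loess normalization, scaling to 7 reference genes, a dim filter, every probe set, the mean of probe sets, trended and robust moderation, fits of the compared groups by themselves, a replicate block, a threshold of 0.01, the methods' t-test, and leaving out each sample.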

Additional observations from a re-analysis of the deposited data

Results flagged for a closer look

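The change made by erastin differed with and without tubacin, by the interaction term of limma, for ARRDC3 among the 7 genes (0.72, adjusted p = 0.000935). Of the surrounding genes it was positive for SLC2A1 (1.24), HECW1 (1.15), MXD1 (0.85), HK1 (0.76), SMURF1 (0.65), PFKFB3 (0.64), ITGB4 (0.42) and TXNRD1 (0.38). It was negative for SMURF2 (-1.28), NEDD4L (-0.60), ELOVL6 (-0.58) and NEDD4 (-0.39). Of all genes, 15% passed this test. The interaction of MXD1 is 0.38 and not called when its probe sets are averaged, and that of TXNRD1 was called in 10 of 21 alternatives, that of ITGB4 in 12 and that of NEDD4 in 13. The call of TXNRD1 ends without tubacin replicate 1 or 2 or any 1 replicate of erastin or of both drugs (0.36 to 0.39). That of ITGB4 ends without control replicate 3, erastin replicate 3, tubacin replicate 1 or 2, or replicate 1 or 2 of both drugs (0.38 to 0.41). That of NEDD4 ends without erastin replicate 2, tubacin replicate 2 or 3, or replicate 1 or 2 of both drugs (-0.39 to -0.36).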

How the results depend on the processing

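The rises of TXNIP, ARRDC3 and ARRDC4 with erastin and with both drugs were called in 23 of 23 alternatives, and the interaction of ARRDC3 in 21 of 21 (0.68 to 0.78). The number of the 7 genes called stayed within 1.5 times under all alternatives but these: with tubacin alone it is 1 (TXNIP) by the methods' t-test unadjusted, and for the interaction it is 1 to 2 when 1 sample is left out. Leaving out 1 sample gave 3 to 4 genes for erastin, 4 to 5 for both drugs, 2 to 3 against erastin and 4 to 5 against tubacin. Scaling to the reference genes, which raises the median change of all genes by 0.18 with both drugs, gives MLX 0.085 between both drugs and erastin and ARRDC3 0.000933 with tubacin. ACTB was not used for scaling: its probe set was at 6.12 in control, had an SD of 0.51 between tubacin samples and fell by 1.19 with both drugs, so scaling to it would make the fall of MLX with both drugs a rise. Leaving out 1 sample also turned the sign of 5 changes that were not called: MLXIP with erastin (-0.13 to 0.074) and with both drugs (-0.021 to 0.18), MLX with tubacin (-0.038 to 0.067), ARRDC2 between both drugs and erastin (-0.015 to 0.23), and the interaction of ARRDC1 (-0.057 to 0.14). The adjusted p of TXNIP between both drugs and erastin ranged from 0.0019 to 0.0798 over 23 alternatives. Same-numbered samples did not deviate together (correlations of -0.09 to 0.05, with 0 of 18 pairs over 0.1). With the replicate block the changes are the same and the call of MLX with erastin ends (-0.26, adjusted p = 0.0712); over all genes the calls go from 52 to 23 with tubacin and from 1869 to 1424 with erastin. With the dim filter 127 genes are called with tubacin. The cause of these differences was not tested.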
